A study of Mus musculus with 12 samples.

Results

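The genes described here are the single-numbered cadherins (Cdh) and the non-clustered protocadherins (Pcdh) of the mouse, cell surface proteins through which cells hold on to each other. They were found by symbol among the protein-coding genes of the deposited expression table, as Cdh or Pcdh followed by a number, with X-linked and Y-linked forms allowed and the endothelial cadherin left out. The rule found 34 genes of 55862 in the table, of which 21926 were protein-coding. There were 22 cadherins and 12 protocadherins. RNA of 12 samples was sequenced, 3 in each of 4 groups, all labelled as C57BL/6 brain, while the study's methods give C57BL/6J mice for both NPC groups. ASTs were cortical astrocytes of newborn mice, passaged as a monolayer in serum and taken at day 0 of incubation. A-iSCs were the same kind of cells after 5 days on agarose, where they round up into spheres. P56-NPCs were unsorted suspensions of the adult subependymal zone, taken on postnatal day 56. P0-NPCs were unsorted suspensions of newborn hippocampus, taken on postnatal day 0. The study used ASTs as its negative control and both NPC groups as positive controls.

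Cadherins bind their like on the neighbouring cell through calcium-dependent extracellular repeats. Classical cadherins of type I and type II hold catenins with their cytoplasmic tails, and the catenins tie the junction to actin. Atypical cadherins such as Cdh13 lack that tail, while delta protocadherins adhere weakly and take part in cell sorting and in the wiring of neurons. In the brain Cdh2, N-cadherin, joins neuroepithelial cells, astrocytes and synapses, and different neurons and glia carry different sets of type II cadherins and delta protocadherins.

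Between 17077780 and 24452419 fragments were counted per sample, and 3 fragments corresponded to 0.103 to 0.187 FPKM (fragments scaled by gene length in kilobases and by library size) in a gene 1 kilobase long, a floor for counting error alone. The share of mitochondrial genes in the counted fragments was 16.5% to 17.6% in P56-NPCs and 2.94% to 7.03% elsewhere. All 7 listed astrocyte markers had a mean of at least 1 FPKM in every group, but their summed level was 116 to 133 FPKM in ASTs, 1150 to 2400 in A-iSCs, 2790 to 3010 in P56-NPCs and 224 to 288 in P0-NPCs. ASTs held Acta2, the smooth muscle actin, at 1690 to 2113 FPKM and the fibroblast collagen Col1a1 at 131 to 178 FPKM. Some other markers of these cell types were low in ASTs, with group means of 0.248 FPKM for Dcn, 0.0374 for Lum, 0.311 for Rgs5, 0.0156 for Kcnj8 and 0.00689 for Abcc9, and these had their highest means in P0-NPCs. Oligodendrocyte markers summed to 8520 to 9770 FPKM in P56-NPCs and to at most 25.3 FPKM in any other sample. The neuron markers summed to 713 to 897 FPKM in P0-NPCs, the endothelial markers to 63.6 to 64.3 FPKM there, and the microglia markers to 1010 to 1390 FPKM in A-iSCs. Of progenitor genes looked at after the data were seen, Sox2 was at 84.3 FPKM or more in every sample, and Nes, nestin, was at 183 to 209 FPKM in ASTs and 3.48 to 3.91 FPKM in P56-NPCs. Dcx and Eomes, looked at with them, were highest in P0-NPCs. Dcx was at 80.4 to 93.2 FPKM there and at most 3.78 FPKM in any other sample. Eomes was at 10.3 to 17.6 FPKM there and at most 0.584 FPKM in any other sample. In RNA of whole cultures or suspensions, fewer cells of a type and less RNA per cell cannot be told apart.

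Of the 34 genes, 24 had a mean of at least 1 FPKM in at least 1 group, and Cdh16, a kidney cadherin, had 0 fragments in all 12 samples. At that level 16 genes were seen in ASTs, 15 in A-iSCs, 19 in P56-NPCs and 20 in P0-NPCs. Among the 24, the highest group mean was that of ASTs for 6 genes, of P56-NPCs for 10, of P0-NPCs for 8 and of A-iSCs for 0. Their lowest group mean was that of ASTs for 8 genes, of A-iSCs for 6, and of either NPC group for 5. The heat map of the levels shows these blocks by class.

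**Figure D1:**
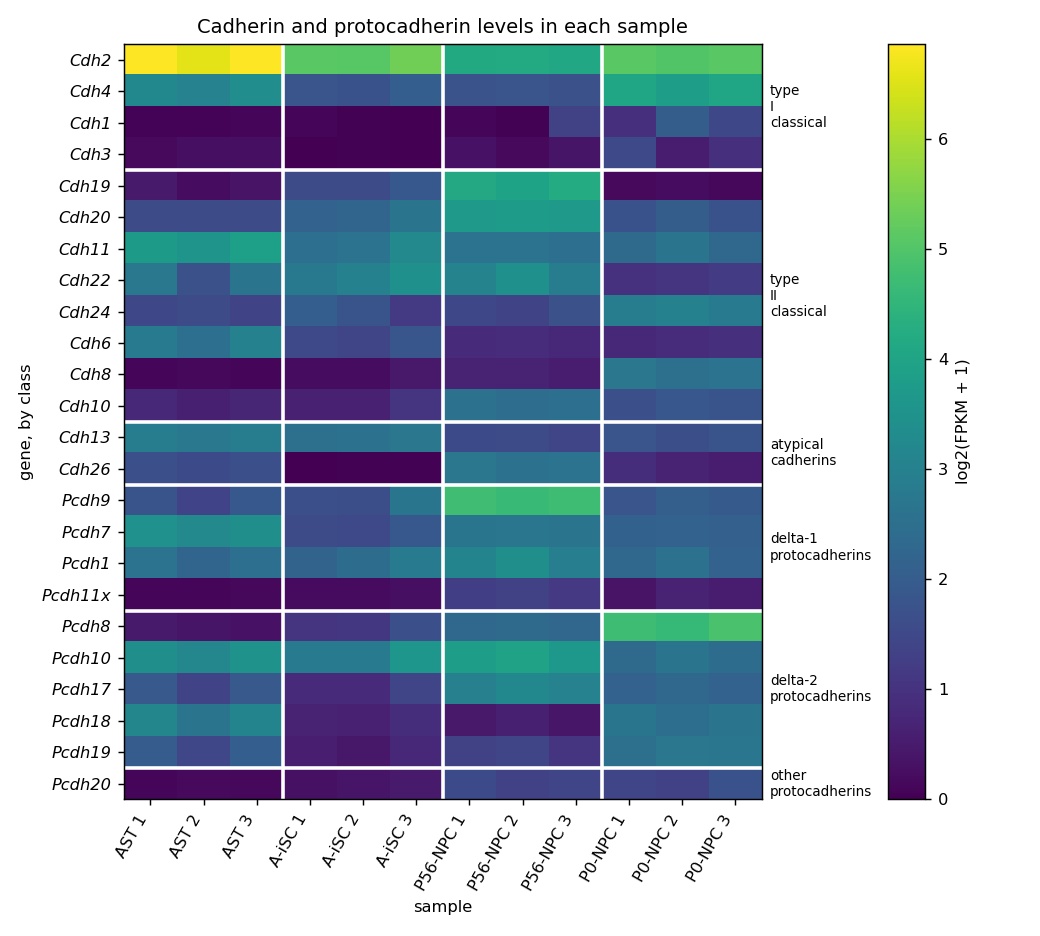
Level of the 24 genes with a mean of at least 1 FPKM in at least 1 group, as log2(FPKM + 1), with genes in rows by class and the 12 samples in columns. Cdh2 is the brightest row in ASTs, Cdh19, Cdh20 and Pcdh9 are bright in the P56-NPCs, and Pcdh8 and Cdh4 in the P0-NPCs.

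The summed level of the 34 genes was 203, 164 and 207 FPKM in the AST samples and 79.9, 81.2 and 113 FPKM in the A-iSC samples. It was 149, 152 and 145 FPKM in P56-NPCs and 136, 136 and 139 FPKM in P0-NPCs, so in the values as deposited the ranges of the 4 groups did not overlap. Library-size scaling would multiply the sums by 0.744 to 1.218, depending on the sample. It was not applied to the sums, so the separation and the order of the groups hold for the deposited scaling alone. The make-up of the summed level differed as well. Cdh2 alone gave 56.6% ± 0.978 (SD, n = 3) of it in ASTs, 39.5% ± 3.05 in A-iSCs, 23.9% ± 0.881 in P0-NPCs and 11.4% ± 0.134 in P56-NPCs. In P56-NPCs the gene with the largest share was Pcdh9, at 17.2% ± 0.963, followed by Cdh2 and by Cdh19 at 11.1% ± 1.21. In P0-NPCs Pcdh8 came after Cdh2 with 18.9% ± 1.89 and Cdh4 followed with 10.8% ± 0.984. In A-iSCs Pcdh10 and Cdh22 came after Cdh2, with 8.37% ± 1.27 and 8.29% ± 0.832, shares that lay within each other's spread.

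**Figure D2:**
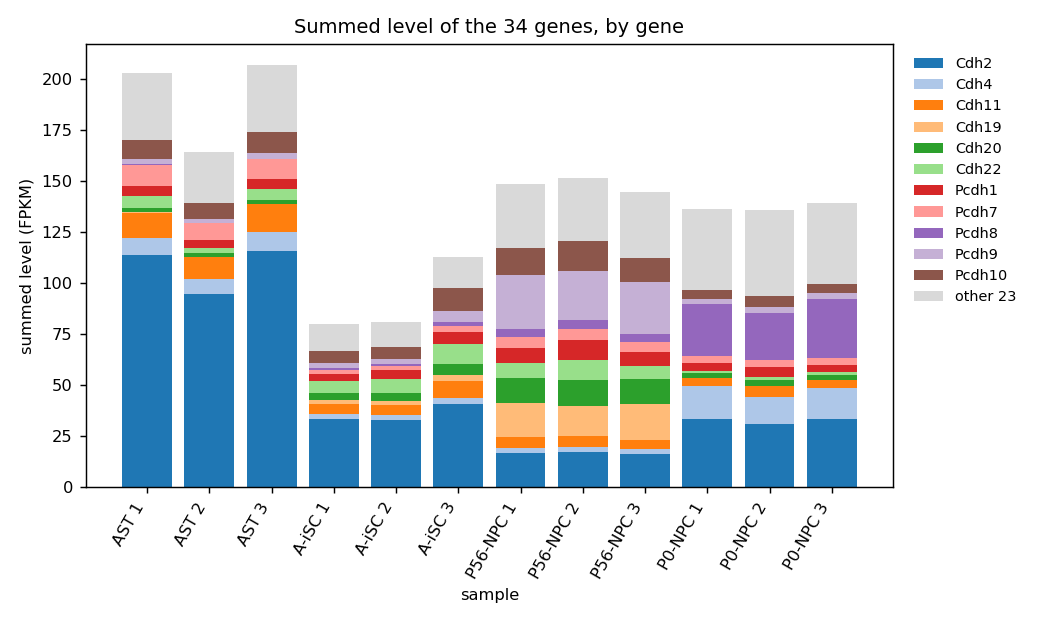
Summed level (FPKM) of the 34 genes in each of the 12 samples, stacked by gene, with 23 genes drawn together in grey. The AST columns reach 164 to 207 FPKM and are mostly Cdh2, and the A-iSC columns reach 79.9 to 113 FPKM.

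The comparison of A-iSCs with ASTs asked how gene expression differs after sphere culture of the astrocytes. More of these genes were lower than higher in the spheres. Of 18 genes tested, 9 were lower in A-iSCs, 3 were higher and 6 did not pass an adjusted p of 0.05 (limma on log2(FPKM + 1), adjusted over all genes tested). The lower genes were the classical cadherins Cdh2, Cdh4, Cdh6 and Cdh11, the atypical Cdh26, and the protocadherins Pcdh7, Pcdh17, Pcdh18 and Pcdh19. The higher genes were the type II cadherins Cdh19 and Cdh20 and the protocadherin Pcdh8. Among all 14087 genes tested, 54.8% were called, 25.2% higher and 29.6% lower. The filter on low values was passed in both groups by 13 of the 18, of which 1 was higher and 6 lower, with a median log2 fold change of -0.27 beside -0.11 over all genes that passed in both. The other 5 passed through 1 group only, where the filter favours genes that differ, 2 being higher and 3 lower. The 5 mural markers summed to 1700 to 2120 FPKM in ASTs, nearly all of it Acta2, and to 29.6 to 61.6 FPKM in A-iSCs, while the 5 microglia markers summed to 89.3 to 120 FPKM and 1010 to 1390 FPKM, and the part of such cells in these differences was not tested.

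Cdh2 lies at chr18:16588877-16809246 on GRCm38. It was at 114, 94.8 and 116 FPKM in the AST samples and at 33.5, 33.0 and 40.7 FPKM in the A-iSC samples. The highest A-iSC sample thus stayed well under the lowest AST sample. The fall was 3.03-fold, a log2 fold change of -1.57 ± 0.14 (SE) with an adjusted p of 0.000106. Cdh4, R-cadherin, is the other type I cadherin that was tested, and it lies at chr2:179442431-179899373. Its levels of 8.22, 7.33 and 9.38 FPKM in ASTs were followed by 2.51, 2.31 and 3.17 FPKM in A-iSCs. The fall was 3.12-fold, a log2 fold change of -1.35 ± 0.14 with an adjusted p of 0.00018. The remaining type I genes, Cdh1 (E-cadherin), Cdh3 (P-cadherin) and Cdh15 (the muscle cadherin), stayed at or under 0.225 FPKM in all 6 of these samples and were not tested.

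The type II cadherins split. Cdh11, a cadherin of mesenchymal cells, was at 12.3, 10.7 and 13.7 FPKM in ASTs and at 4.73, 5.07 and 8.31 FPKM in A-iSCs (log2 fold change -0.94 ± 0.2, adjusted p 0.00618). Cdh6 was at 6.13, 4.72 and 7.08 FPKM in ASTs and at 1.84, 1.71 and 2.60 FPKM in A-iSCs (-1.19 ± 0.17, adjusted p 0.000973). In both genes the groups did not overlap, and A-iSC replicate 3 was the highest of its group. Cdh19, known from the neural crest lineage and the precursors of Schwann cells, went the other way, from 0.404, 0.161 and 0.289 FPKM in ASTs to 1.95, 1.97 and 2.73 FPKM in A-iSCs. That rise was 7.77-fold by the means, a log2 fold change of 1.32 ± 0.14 with an adjusted p of 0.000244. Cdh20 rose 2.11-fold, from 1.95, 1.99 and 1.97 FPKM to 3.46, 3.74 and 5.28 FPKM (0.78 ± 0.15, adjusted p 0.00347). The 5 oligodendrocyte markers summed to 0.842 to 0.996 FPKM in ASTs and to 15.3 to 16.3 FPKM in A-iSCs. The 3 markers of their precursors summed to 3.1 to 3.44 and 7.56 to 11.1 FPKM, but did not move together. Of these 3, 2 were called higher and Cspg4 lower, from a mean of 2.92 to 1.93 FPKM. The part of such cells in the rise of Cdh19 and Cdh20 was not tested.

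Cdh22 and Cdh24 were not called. Cdh22, found in pituitary and brain, was at 5.69, 2.27 and 5.29 FPKM in ASTs and at 5.86, 7.06 and 9.98 FPKM in A-iSCs, so that the groups just failed to overlap (log2 fold change 0.71 ± 0.3, adjusted p 0.0814). It was called higher, with adjusted p of 0.0285 to 0.0439, when the samples were scaled by library size or upper quartile, when all 4 groups shared the model, and with the replicate block. Cdh24 was at 1.80, 2.05 and 1.64 FPKM in ASTs and at 3.13, 2.42 and 1.26 FPKM in A-iSCs. It was lowest in A-iSC replicate 3, and without that sample it was called higher (0.41, adjusted p 0.0269).

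Among the atypical cadherins, Cdh26 was at 2.18, 1.92 and 2.22 FPKM in ASTs, from 110, 117 and 124 fragments, and A-iSCs held 0, 2 and 2 fragments. The log2 fold change of -1.61 ± 0.11 (adjusted p 2.55e-05) understates such a loss, since it is taken on FPKM + 1. Cdh13, T-cadherin, which is anchored in the membrane by a lipid, was at 6.49, 5.72 and 6.39 FPKM in ASTs and at 4.78, 4.95 and 5.59 FPKM in A-iSCs. The groups did not overlap, but the difference of -0.24 ± 0.11 did not pass the test (adjusted p 0.1). It passed without A-iSC replicate 3, at -0.3 with an adjusted p of 0.0336, and with all 4 groups in the model, at an adjusted p of 0.0355.

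Protocadherins of the delta-2 class moved in both directions. Pcdh18 was at 7.81, 5.22 and 7.51 FPKM in ASTs and at 0.573, 0.549 and 0.855 FPKM in A-iSCs. The fall was 10.4-fold by the means (log2 fold change -2.23 ± 0.16, adjusted p 3.91e-05), the most negative value among the 18 genes. Pcdh19, the X-linked gene of a familial epilepsy, was at 3.03, 1.74 and 3.11 FPKM in ASTs and at 0.493, 0.350 and 0.706 FPKM in A-iSCs (-1.24 ± 0.19, adjusted p 0.0012). Pcdh8, which neurons induce upon activity, rose from 0.407, 0.304 and 0.273 FPKM to 1.06, 1.16 and 2.22 FPKM (0.87 ± 0.19, adjusted p 0.006). No sample of these genes fell within the range of the other group.

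Pcdh17 was at 2.79, 1.65 and 2.78 FPKM in ASTs and at 0.768, 0.800 and 1.73 FPKM in A-iSCs, and here the groups overlapped. Its call (-0.71 ± 0.22, adjusted p 0.0292) was lost under library-size scaling, upper-quartile scaling and no filter, at adjusted p of 0.0554 to 0.0759. It was also lost without AST replicate 1 or 3 and without A-iSC replicate 1 or 2, at adjusted p of 0.0893 to 0.0971. Pcdh10 was at 9.77, 7.99 and 10.3 FPKM in ASTs and at 6.10, 6.21 and 11.1 FPKM in A-iSCs, and its difference of -0.27 ± 0.22 was not called (adjusted p 0.331). Without A-iSC replicate 3 it was -0.53, with an adjusted p of 0.01. Among the 24 genes with at least 1 FPKM, that replicate had the highest value of its group for 20. The same count was not made over all genes, so it cannot be read as a trait of these genes. A-iSC replicate 3 also had the highest astrocyte marker sum of its group, 2400 FPKM beside 1150 and 1430 FPKM, and the part of that in the result was not tested.

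Of the delta-1 class only Pcdh7 was called. It was at 10.02, 8.36 and 9.65 FPKM in ASTs and at 1.95, 1.86 and 2.71 FPKM in A-iSCs, a 4.3-fold fall (log2 fold change -1.71 ± 0.14, adjusted p 5.9e-05). Of its exonic bases, 2235 are shared with the opposite-strand gene 4932441J04Rik, which had a group mean of at most 0.556 FPKM, and whether the counting used strand is not given in the sources used here. Pcdh1 was at 3.77 to 5.13 FPKM in ASTs and at 3.55 to 6.09 FPKM in A-iSCs, and Pcdh9 at 1.61 to 2.72 and 2.16 to 5.38 FPKM. Neither was called (adjusted p 0.928 and 0.387), and the upper end of both A-iSC ranges was replicate 3.

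**Figure D3:**
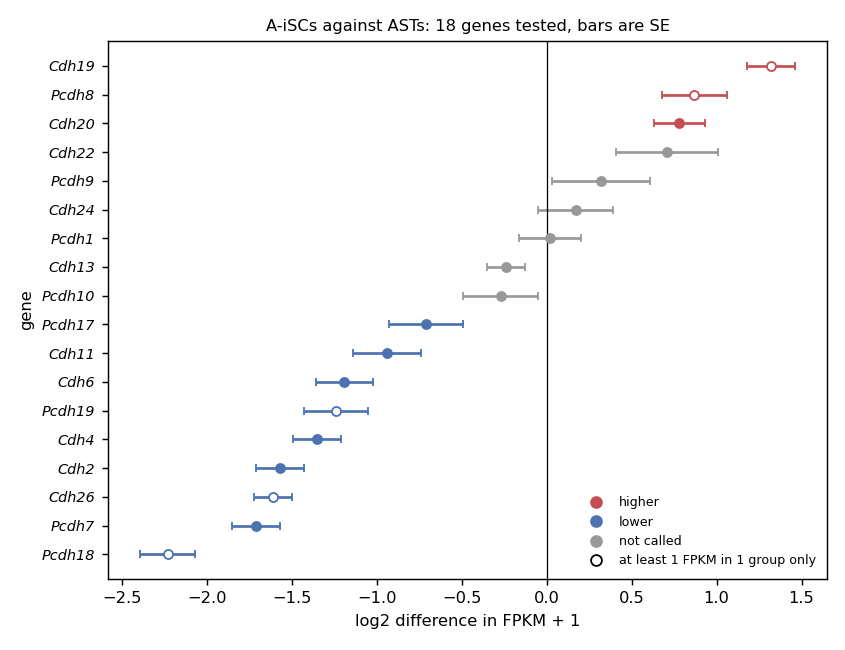
Log2 fold change (difference in log2(FPKM + 1)) of A-iSCs over ASTs for the 18 genes tested, with bars of 1 SE, coloured by call, and open points for genes that had at least 1 FPKM in 1 group only. Pcdh18 lies lowest at -2.23 and Cdh19 highest at 1.32.

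The start regions of 3 protocadherins are shown because these genes had the most negative (Pcdh18, Pcdh7) and the most positive (Pcdh8) differences of their classes between spheres and astrocytes. Each runs from 250 bases before to 50 bases after a start site in RefSeq on GRCm38.p6, in the direction of the gene. Capitals mark the letters CACCTG or the reverse CAGGTG, an E-box of the kind bound by Snail and Zeb repressors, and TATAAA or the reverse TTTATA, the core of a TATA box. These motifs do not overlap each other.
Pcdh18 (chr3:49757267-49757566, minus strand): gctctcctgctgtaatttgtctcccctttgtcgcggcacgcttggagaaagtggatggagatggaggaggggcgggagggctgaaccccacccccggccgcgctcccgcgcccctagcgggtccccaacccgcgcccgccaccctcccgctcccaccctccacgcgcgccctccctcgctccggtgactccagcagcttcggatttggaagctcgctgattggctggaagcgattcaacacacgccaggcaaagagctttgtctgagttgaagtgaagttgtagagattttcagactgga
Pcdh7 (chr5:57717831-57718130, plus strand): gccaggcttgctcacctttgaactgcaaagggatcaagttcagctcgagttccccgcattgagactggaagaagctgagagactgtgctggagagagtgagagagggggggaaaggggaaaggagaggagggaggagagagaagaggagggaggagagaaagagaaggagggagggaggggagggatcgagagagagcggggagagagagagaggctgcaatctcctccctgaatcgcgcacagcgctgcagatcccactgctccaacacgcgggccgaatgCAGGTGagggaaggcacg
Pcdh8 (chr14:79771263-79771562, minus strand): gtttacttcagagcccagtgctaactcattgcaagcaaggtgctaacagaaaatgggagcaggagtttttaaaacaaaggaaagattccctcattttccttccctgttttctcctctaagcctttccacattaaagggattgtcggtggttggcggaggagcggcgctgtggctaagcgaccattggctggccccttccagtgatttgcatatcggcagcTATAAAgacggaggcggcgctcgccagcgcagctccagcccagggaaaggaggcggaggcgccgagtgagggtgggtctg
The Pcdh7 window held 1 E-box, whose first base was 33 bases into the transcribed part. The Pcdh8 window held 1 TATA box that began 30 bases before the start, and the Pcdh18 window held neither motif. Promoter windows were found for 22 of the 34 genes, 25 windows in all. An E-box lay in 5 of the 25 windows, those of Cdh7, Pcdh7 and Pcdh15, beside 20.2% of the 32851 windows of all genes, and a TATA box in 2 of the 25, of Pcdh8 and Pcdh15, beside 13.6%. The members' windows held a median of 14 CpG pairs, and those of all genes 7.

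The listed repressors of cadherin genes were called in both directions between spheres and astrocytes. Twist1 was at 21.5, 30.2 and 22.95 FPKM in ASTs and at 1.86, 1.89 and 1.35 FPKM in A-iSCs (log2 fold change -3.25 ± 0.16, adjusted p 8.1e-06). Snai1 and Snai2 fell as well, by 1.68 and 1.73 on the log2 scale. Zeb1 rose from 9.09, 7.77 and 8.63 FPKM to 11.1, 13.4 and 14.0 FPKM (0.54 ± 0.12, adjusted p 0.00866), and Zeb2 from 4.08, 3.04 and 4.26 FPKM to 5.34, 4.81 and 7.92 FPKM (0.53 ± 0.19, adjusted p 0.0469). The call of Zeb2 was lost when any of 5 of the 6 samples was left out, A-iSC replicate 2 being the exception (limma adjusted p 0.0697 to 0.139), and with no filter (0.0978). Of the 6 listed repressors, 5 were tested, 3 of them lower and 2 higher, beside 29.6% and 25.2% of all genes, and Twist2 was at most 0.339 FPKM in every sample. Snai1 and Snai2 passed the filter through ASTs only, where the filter favours genes that differ. Of the 3 that passed in both groups, 2 were higher and 1 lower. Twist1, Snai1 and Snai2 are also genes of fibroblasts. In A-iSCs the 5 fibroblast markers summed to 4.67 to 5.73 FPKM, against 147 to 198 FPKM in ASTs. Most of the AST sum was Col1a1, while Dcn and Lum were under 1 FPKM in both groups and Lum had the higher mean in A-iSCs (0.128 beside 0.0374 FPKM). The part of such cells in these results and in the fall of Cdh11 was not tested.

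The catenins and other junction partners were lower in A-iSCs or not called. Of 14 listed, 13 were tested, 0 were higher and 9 lower, with a median log2 fold change of -0.87, beside 25.2% higher, 29.6% lower and a median of -0.06 over all genes. Under library-size and upper-quartile scaling 8 and 7 were lower, and Ctnna2, the alpha-catenin of neurons, was called higher (0.62 under both, 0.43 as deposited). Ctnna2 was also called higher with the replicate block (limma adjusted p 0.0471), with all 4 groups in the model (0.0171) and without A-iSC replicate 2 (0.0295). Ctnna1, alpha-catenin, fell from 98.5, 105 and 99.2 FPKM to 53.0, 47.0 and 56.7 FPKM (-0.94 ± 0.12, adjusted p 0.000604). Jup, plakoglobin, fell from 11.8, 12.7 and 11.59 FPKM to 4.72, 4.07 and 4.38 FPKM (-1.27 ± 0.1, adjusted p 6.13e-05), and the nectins Nectin1, Nectin2 and Nectin3 fell by 0.94 to 1.6 on the log2 scale. Ctnnb1, beta-catenin, was at 149, 113 and 153 FPKM in ASTs and at 89.8, 92.5 and 168 FPKM in A-iSCs, with overlapping groups, and was not called (-0.29 ± 0.27, adjusted p 0.384). Without A-iSC replicate 3, the sample at 168 FPKM, it was called lower (-0.58, limma adjusted p 0.0205). Vcl, vinculin, was called lower (-1.95 ± 0.53, adjusted p 0.0167), but AST replicate 2 stood apart with 7.16 FPKM beside 24.9 and 27.1 FPKM. The call of Vcl was lost without AST replicate 1 or 3 or without A-iSC replicate 1 or 2 (limma adjusted p 0.0524 to 0.0611). The lower call of Pkp4 (-0.37) was lost without the same samples (0.0653 to 0.0883) and under both scalings (0.241 and 0.25). That of Ctnnd1 (-0.65) was lost under upper-quartile scaling (0.0718) and without A-iSC replicate 2 (0.0543). On leaving out a sample, 6 to 11 of the junction partners were lower.

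The large relatives of the cadherins were called in both directions. Of 12 listed, 8 were tested, 4 were higher and 2 lower, with a median of 0.26, and the 6 called of 8 stand beside 54.8% of all genes. The filter was passed through 1 group only by 2 of the 8, of which 1 was higher and 1 lower. The lower call of Clstn2 was lost without AST replicate 1 or 3 (limma adjusted p 0.0598 and 0.0543). Celsr1, a planar polarity cadherin, rose from 1.44, 0.936 and 1.25 FPKM to 3.79, 4.60 and 6.17 FPKM (1.39 ± 0.17, adjusted p 0.000482), and Celsr2, Dchs1 and Fat3 rose as well. Fat1, a giant protocadherin of the leading edge, fell from 64.4, 43.0 and 68.7 FPKM to 11.1, 12.4 and 20.1 FPKM (-1.95 ± 0.26, adjusted p 0.000631).

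P56-NPCs differed from ASTs in nearly every cadherin gene expressed. Of 21 genes tested, 12 were higher and 8 lower in P56-NPCs, and Cdh24 was not called. Among the 15146 genes tested, 78.9% were called, 39.1% higher and 39.8% lower, so that much of the table differed between these groups. The filter was passed in both groups by 14 of the 21, of which 7 were higher and 6 lower (median log2 fold change 0.25, and -0.15 over all genes that passed in both), and through 1 group only by 7, of which 5 were higher and 2 lower. The higher genes were Cdh19, Cdh20, Cdh10, Cdh22 and Cdh26 with the protocadherins Pcdh1, Pcdh8, Pcdh9, Pcdh10, Pcdh11x, Pcdh17 and Pcdh20. The lower genes were Cdh2, Cdh4, Cdh6, Cdh11, Cdh13, Pcdh7, Pcdh18 and Pcdh19.

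Cdh19 was at 16.8, 14.9 and 17.7 FPKM in P56-NPCs, far above the 0.161 to 0.404 FPKM of ASTs (log2 fold change 3.76 ± 0.1, adjusted p 1.1e-07). Pcdh9 was at 26.3, 24.4 and 25.7 FPKM, 11.3 times the AST mean (3.04 ± 0.13, adjusted p 9.83e-07). Cdh20 was at 12.2, 12.8 and 12.1 FPKM, 6.27 times the AST mean (2.17 ± 0.062, adjusted p 1.4e-07). These levels stood beside oligodendrocyte markers at 8520 to 9770 FPKM, of which all 5 were at least 1 FPKM in P56-NPCs and 0 in ASTs, and the part of such cells in the result was not tested.

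Pcdh17 rose to 6.97, 8.28 and 7.26 FPKM (1.34 ± 0.15, adjusted p 0.000136) and Pcdh10 to 13.4, 14.4 and 11.8 FPKM (0.46 ± 0.11, adjusted p 0.00754). Cdh26 was at 5.55, 4.90 and 5.14 FPKM in P56-NPCs, a log2 fold change of 1.0 ± 0.078 with an adjusted p of 1.75e-05. Cdh26 held its 3 highest values in the group whose ependymal markers summed to 225 to 298 FPKM. The other groups did not follow the order of these markers. ASTs, with a Cdh26 mean of 2.1 FPKM, had ependymal sums of 49.1 to 62.3 FPKM. A-iSCs and P0-NPCs, with Cdh26 means of 0.0176 and 0.64 FPKM, had sums of 59.6 to 71.7 and 69.2 to 88.6 FPKM. The part of ependymal cells was not tested. Pcdh1 was at 7.55, 9.64 and 6.59 FPKM (0.69 ± 0.15, adjusted p 0.00391). Pcdh8, at 3.92, 4.19 and 3.79 FPKM, and Pcdh20, at 1.89, 1.57 and 1.70 FPKM, rose from under 1 FPKM in ASTs (1.9 ± 0.08 and 1.29 ± 0.084, adjusted p 7.47e-07 and 6.81e-06). Cdh10, at 4.98, 4.51 and 4.64 FPKM, and Pcdh11x, at 1.41, 1.55 and 1.21 FPKM, rose from at most 0.742 and 0.112 FPKM (1.8 ± 0.085 and 1.13 ± 0.089, adjusted p 1.3e-06 and 1.89e-05). The call of Pcdh10 was lost under library-size scaling (0.14, adjusted p 0.3). The 4 striatal neuron markers summed to 42.0 to 61.0 FPKM in P56-NPCs and to 0.585 to 0.745 FPKM in ASTs. The 5 neuron markers summed to 131 to 160 and 81.5 to 118 FPKM, 4 being called higher and 1 lower. All 7 astrocyte markers were called higher. The part of such cells in these rises was not tested.

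Cdh2 had its lowest levels in P56-NPCs, at 17.1, 17.4 and 16.3 FPKM, a 6.39-fold difference from ASTs (-2.6 ± 0.096, adjusted p 4.13e-07). Pcdh18 was at 0.397, 0.523 and 0.339 FPKM there (-2.45 ± 0.14, adjusted p 3.92e-06), and Cdh4 was at 2.37, 2.53 and 2.26 FPKM (-1.45 ± 0.096, adjusted p 7.23e-06). Cdh6, at 0.779, 0.829 and 0.733 FPKM, and Cdh11, at 5.07, 5.12 and 4.74 FPKM, were lower as well (-1.96 ± 0.13 and -1.14 ± 0.096, adjusted p 7.25e-06 and 2.59e-05). So were Cdh13, at 1.91, 2.01 and 1.72 FPKM, and Pcdh7, at 5.35, 5.43 and 5.27 FPKM (-1.32 ± 0.08 and -0.7 ± 0.081, adjusted p 4.46e-06 and 0.000143). None of these samples reached the AST values of its gene. The calls of Cdh22 (0.77 ± 0.29, adjusted p 0.0408) and Pcdh19 (-0.55 ± 0.18, adjusted p 0.0257) were weak. Cdh22 lost its call under library-size scaling (0.47, adjusted p 0.167) and without any of the P56-NPC samples (adjusted p 0.0532 to 0.138), and Pcdh19 without AST replicate 1 or 3 or P56-NPC replicate 1 or 3 (adjusted p 0.0525 to 0.0869). Both were also lost with the replicate block, at adjusted p of 0.0736 and 0.0504, and with no filter, at 0.084 and 0.0581.

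P0-NPCs had more Pcdh8, Cdh8 and Cdh24 than ASTs and less Cdh2 and Cdh6. Of 22 genes tested, 10 were higher and 9 lower in P0-NPCs, beside 79.0% of 15010 genes called, 38.1% higher and 40.9% lower. Of the 14 genes that passed the filter in both groups, 4 were higher and 7 lower (median log2 fold change -0.23, and -0.18 over all genes that passed in both). The 8 that passed through 1 group only gave the other 6 higher and 2 lower calls. The AST samples are the same as in the comparison above, so the counts are not independent of it.

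Pcdh8 was at 25.7, 23.1 and 28.9 FPKM in P0-NPCs and at most 0.407 FPKM in the AST samples, a 78.9-fold difference by the means (4.33 ± 0.1, adjusted p 2.82e-08). An opposite-strand gene, Gm9748, shares 436 exonic bases with Pcdh8 and had a group mean of at most 0.394 FPKM. Cdh8, a type II cadherin of forebrain neurons, was at 5.56, 4.85 and 5.12 FPKM in P0-NPCs and at 0.0616 to 0.102 FPKM in ASTs (2.51 ± 0.088, adjusted p 1.42e-07). Cdh24 was at 6.57, 7.11 and 6.21 FPKM (1.43 ± 0.093, adjusted p 3.29e-06) and Cdh4 at 15.8, 13.2 and 15.4 FPKM (0.77 ± 0.11, adjusted p 0.000341). All of these P0-NPC values lay above every AST value. Neuron markers, all 5 of them at least 1 FPKM, summed to 713 to 897 FPKM in P0-NPCs and to 81.5 to 118 FPKM in ASTs, and the part of neurons in the result was not tested.

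The other higher genes were Cdh1, Cdh3, Cdh10, Pcdh17, Pcdh19 and Pcdh20. Cdh10 was at 2.18, 2.64 and 2.47 FPKM in P0-NPCs. Pcdh19 rose to 4.76, 5.62 and 5.48 FPKM (0.81 ± 0.16, adjusted p 0.002). Pcdh20 was at 1.68, 1.58 and 2.32 FPKM, from 0.0869 to 0.135 FPKM in ASTs (1.36 ± 0.12, adjusted p 1.76e-05). Pcdh17 was weakly higher (0.46 ± 0.15, adjusted p 0.0214), and its call was lost without P0-NPC replicate 2 or 3 (adjusted p 0.0765 and 0.0501) and with no filter (0.0536).

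The lower genes were Cdh2, Cdh6, Cdh11, Cdh13, Cdh22, Cdh26, Pcdh7, Pcdh10 and Pcdh18. Cdh2 was at 33.6, 31.2 and 33.4 FPKM (-1.69 ± 0.11, adjusted p 2.9e-06) and Cdh11 at 4.15, 5.26 and 3.91 FPKM (-1.29 ± 0.13, adjusted p 3.32e-05). Cdh6 fell under 1 FPKM, to 0.693, 0.841 and 0.905 (-1.93 ± 0.14, adjusted p 4.96e-06). Pcdh7, Cdh13 and Pcdh10 were 2.75, 2.64 and 2.01 times lower than in ASTs (-1.23 ± 0.089, -1.11 ± 0.089 and -0.87 ± 0.12, adjusted p 5.88e-06, 1.12e-05 and 0.000211). Cdh26 was at 0.856, 0.593 and 0.470 FPKM (-0.93 ± 0.11, adjusted p 0.00012). Pcdh18 remained at 5.39, 4.54 and 5.20 FPKM in P0-NPCs, which overlapped the AST values. Its call (-0.36 ± 0.14, adjusted p 0.0467) was lost under library-size scaling, upper-quartile scaling and no filter, and without any sample other than AST replicate 2 (adjusted p 0.0725 to 0.15).

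**Figure D4:**
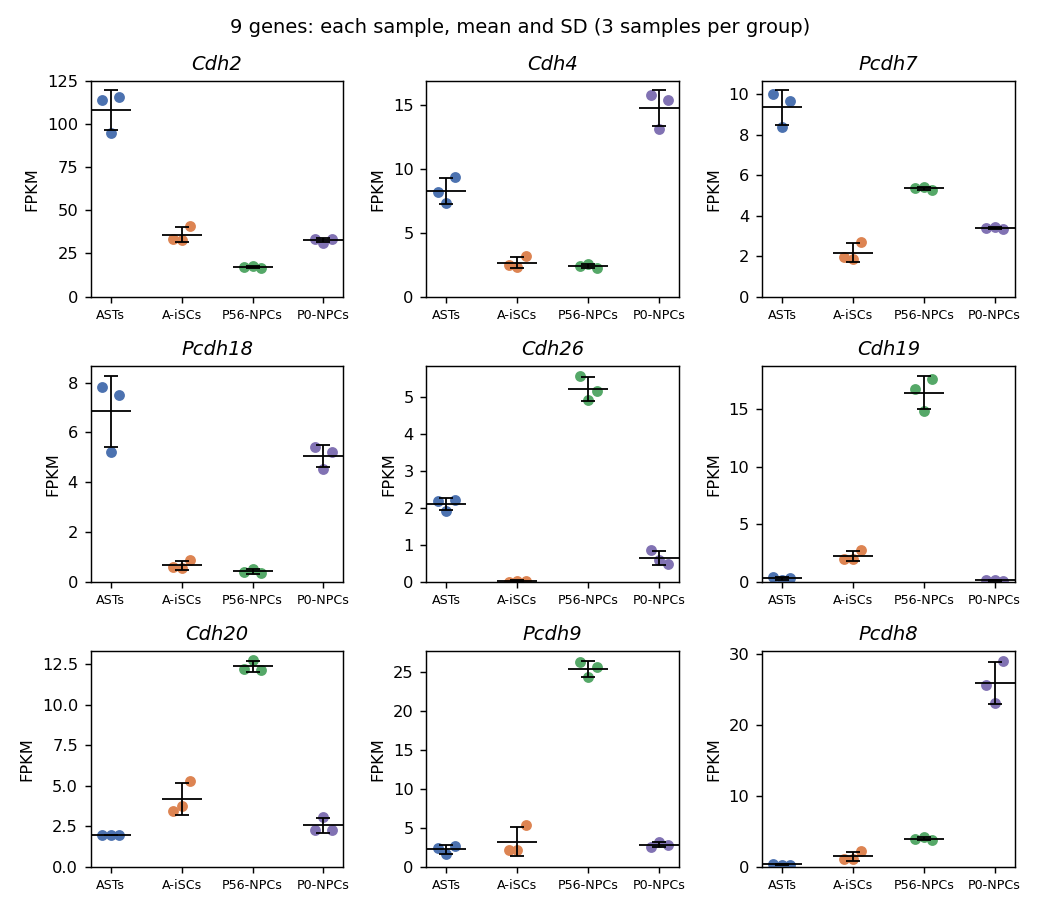
FPKM of 9 genes in the 3 samples of each group, with points for samples, horizontal lines for means and bars for SD. Cdh2, Cdh4, Pcdh7, Pcdh18 and Cdh26 are lower in A-iSCs than in ASTs, Cdh19, Cdh20 and Pcdh9 are highest in P56-NPCs, and Pcdh8 is highest in P0-NPCs.

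Set against P56-NPCs, A-iSCs had less of most protocadherins and more of Cdh2, Cdh6 and Cdh13. Of 20 genes tested, 3 were higher in A-iSCs and 13 lower, beside 61.0% of 15044 genes called, 30.1% higher and 30.9% lower. Of the 14 genes that passed the filter in both groups, 2 were higher and 8 lower (median log2 fold change -0.7, and 0.07 over all genes that passed in both), and of the 6 that passed through 1 group only, 1 was higher and 5 lower. Of the 9 delta protocadherins, 8 were tested and all 8 were lower, as was Pcdh20, while Pcdh18 was under 1 FPKM in both groups and was not tested.

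On the log2(FPKM + 1) scale Pcdh9 had the most negative of these differences, 7.84-fold by the means (-2.72 ± 0.27, adjusted p 0.000121), followed by Cdh26, which had at most 2 fragments in the A-iSC samples (-2.61 ± 0.095, adjusted p 1.27e-06) and Cdh19 (-2.44 ± 0.13, adjusted p 6.03e-06). Cdh19 and Cdh20 rose in spheres over ASTs and yet stayed 7.42 and 2.97 times below P56-NPCs (Cdh20 -1.39 ± 0.14, adjusted p 0.000145). Pcdh17 was 6.84-fold lower than in P56-NPCs (-2.05 ± 0.18, adjusted p 7.4e-05), and Pcdh7 2.46-fold lower (-1.01 ± 0.12, adjusted p 0.000341). Pcdh20 and Pcdh19 were lower too (-1.05 ± 0.11 and -0.69 ± 0.15, adjusted p 0.000145 and 0.00518). Cdh2 was 2.11-fold higher in A-iSCs (1.03 ± 0.11, adjusted p 0.000197) Cdh13 2.72-fold higher (1.08 ± 0.099, adjusted p 8.53e-05) and Cdh6 higher by 0.76 ± 0.13 on the log2 scale (adjusted p 0.00206). Cdh4, Cdh11, Cdh22 and Cdh24 were not called, and their samples overlapped between the groups. Cdh24 was called higher without A-iSC replicate 3 (0.38, adjusted p 0.0381). Cdh10 was at 0.553, 0.561 and 1.10 FPKM in A-iSCs, lower than in P56-NPCs (-1.73 ± 0.14, adjusted p 4.77e-05) and in P0-NPCs (-0.99 ± 0.15, adjusted p 0.000667).

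The lower calls of Pcdh1 and Pcdh10 in this comparison (-0.67 ± 0.2 and -0.73 ± 0.22, adjusted p 0.0213 and 0.0221) were the least firm. They were lost under library-size scaling, at adjusted p of 0.409 and 0.379, and Pcdh10 with no filter as well (0.0501). They were also lost on leaving out A-iSC replicate 1 or 2 or P56-NPC replicate 1 or 2, at adjusted p of 0.0561 to 0.0798.

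Set against P0-NPCs, A-iSCs had far less Pcdh8, Cdh8, Cdh4 and Pcdh19, and more Cdh19 and Cdh22. Of 22 genes tested, 6 were higher in A-iSCs and 12 lower, beside 65.1% of 15170 genes called, 31.5% higher and 33.6% lower. Most of that imbalance lay in the 9 genes that passed the filter through 1 group only, of which 2 were higher and 7 lower. Of the 13 that passed in both groups, 4 were higher and 5 lower (median log2 fold change 0.12, and 0.02 over all genes that passed in both). The A-iSC samples are shared with the comparisons above.

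Pcdh8 was 17.5-fold lower in A-iSCs than in P0-NPCs (-3.46 ± 0.19, adjusted p 3.3e-06), although it had risen over ASTs. Cdh8 was at 0.167, 0.163 and 0.386 FPKM in A-iSCs, 21.7-fold lower (-2.32 ± 0.12, adjusted p 2.72e-06). Cdh4 was 5.56-fold lower (-2.11 ± 0.13, adjusted p 6.43e-06) and Pcdh18 7.65-fold lower (-1.87 ± 0.12, adjusted p 8.79e-06). Cdh22 was 6.91-fold higher in A-iSCs, against 0.968, 1.07 and 1.28 FPKM in P0-NPCs (2.01 ± 0.18, adjusted p 4e-05), and Cdh19 was 16.9-fold higher (1.5 ± 0.13, adjusted p 3.49e-05). Cdh13 and Cdh6 were 2.18 and 2.52 times higher (Cdh13 0.87 ± 0.11, adjusted p 0.00026). Pcdh19 was 10.2-fold lower (-2.06 ± 0.13, adjusted p 6.83e-06) and Cdh24 2.92-fold lower (-1.26 ± 0.21, adjusted p 0.00117). Pcdh20 and Pcdh7 were lower too (-1.11 ± 0.13 and -0.48 ± 0.13, adjusted p 0.000203 and 0.0122). Cdh2 did not differ beyond its spread, with 33.5, 33.0 and 40.7 FPKM in A-iSCs and 33.6, 31.2 and 33.4 FPKM in P0-NPCs (0.12 ± 0.12, adjusted p 0.417). Cdh11, Pcdh1 and Pcdh9 were not called either.

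The higher calls of Cdh20 and Pcdh10 over P0-NPCs were weak (0.53 ± 0.16 and 0.6 ± 0.21, adjusted p 0.0222 and 0.0388). Cdh20 lost its call without P0-NPC replicate 1 or 3 (adjusted p 0.0829 and 0.0811), and Pcdh10 without any of the P0-NPC samples (adjusted p 0.062 to 0.118). Both were lost under upper-quartile scaling and with no filter as well, and Pcdh10 under library-size scaling.

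**Figure D5:**
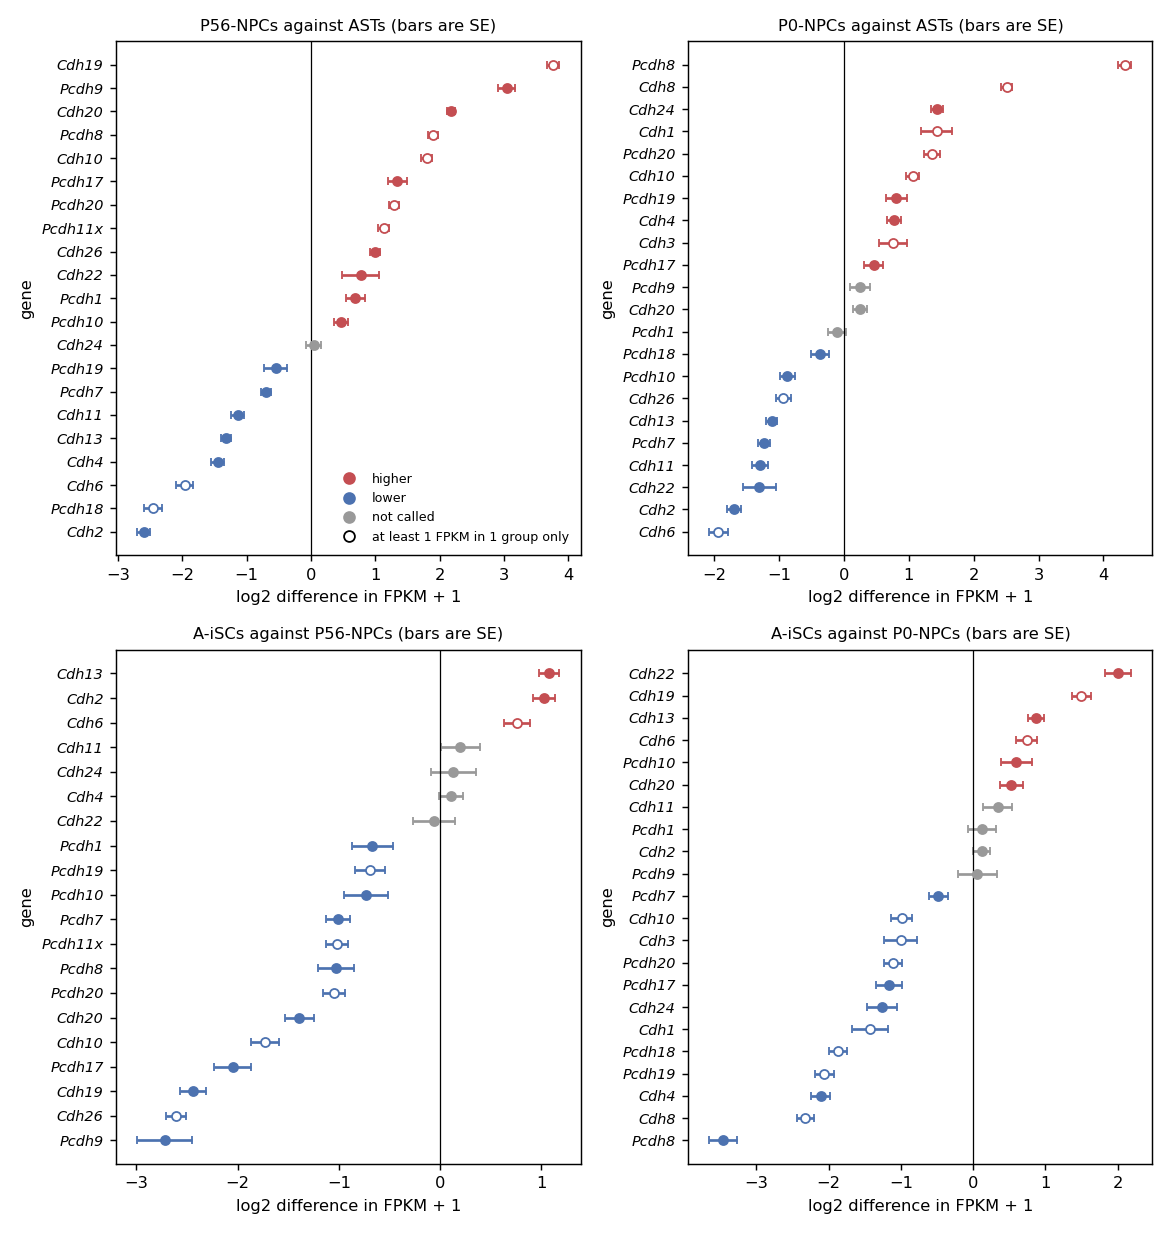
Log2 fold change (difference in log2(FPKM + 1)) with bars of 1 SE in the 4 comparisons with P56-NPCs or P0-NPCs, coloured by call, with open points for genes at 1 FPKM or more in 1 group only. Cdh19 lies highest at 3.76 in P56-NPCs over ASTs, Pcdh8 lies highest at 4.33 in P0-NPCs over ASTs, and Pcdh9 and Pcdh8 lie lowest in A-iSCs against P56-NPCs and P0-NPCs.

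Pkp4, Ctnna2 and Ctnna1 are given as examples of the junction partners in the brain suspensions. Pkp4, an armadillo protein of junctions, was at 177, 189 and 187 FPKM in P56-NPCs and at 11.63 to 18.6 FPKM in the 9 other samples (3.27 ± 0.069 over ASTs, adjusted p 4.03e-08). Ctnna2 was at 5.18, 4.84 and 4.97 FPKM in ASTs and at 33.96, 32.7 and 39.5 FPKM in P0-NPCs (2.6 ± 0.093, adjusted p 1.57e-07). Ctnna1 took the opposite course, from 98.5 FPKM or more in ASTs to 19.8 to 22.8 FPKM in P0-NPCs (-2.18 ± 0.091, adjusted p 3.37e-07). Of the 13 junction partners tested, 4 were higher and 7 lower in P56-NPCs than in ASTs, and 2 were higher and 8 lower in P0-NPCs, where library-size scaling gave 4 higher and 7 lower and upper-quartile scaling 4 and 6. These called shares, 84.6% and 76.9%, were near the 78.9% and 79.0% of all genes. Of the large relatives, 5 of 8 tested were higher and 2 lower in P56-NPCs than in ASTs, and 8 of 9 were higher and 1 lower in P0-NPCs. Of all genes 39.1% were higher and 39.8% lower in P56-NPCs, and 38.1% and 40.9% in P0-NPCs. In each comparison 2 of the relatives passed the filter through 1 group only. They gave 1 higher and 1 lower call in P56-NPCs and 2 higher calls in P0-NPCs. Against P0-NPCs, A-iSCs had 8 of the 9 relatives tested lower and 0 higher. With the replicate block or with no filter 7 were lower, where Celsr2 (-0.58, limma adjusted p 0.0451) lost its call. On leaving out a sample 6 to 8 were lower, where Fat3 was also lost. Of all genes 33.6% were lower and 31.5% higher in that comparison. Lowest were the calsyntenins Clstn2 and Clstn3, proteins of synapses, at -3.8 and -3.21 on the log2 scale. These 2 passed the filter through P0-NPCs only, where the filter favours such a difference. Of the 7 relatives that passed in both groups, 6 were lower and 0 higher.

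Cdh1 and Cdh3, which epithelia carry, had their highest group means in P0-NPCs. Cdh1 was at 0.927, 3.09 and 1.83 FPKM in P0-NPCs, Cdh3 at 1.88, 0.462 and 0.928 FPKM. Replicate 2 was thus the highest for Cdh1 and the lowest for Cdh3. The choroid plexus marker Ttr followed the order of Cdh3, at 3747, 725 and 2265 FPKM, and the 3 epithelial markers summed to 16.4, 4.52 and 9.39 FPKM. In P56-NPCs, where Cdh3 was at 0.263, 0.128 and 0.319 FPKM, Ttr was at 2077, 1452 and 3120 FPKM and the epithelial markers summed to 14.5, 10.3 and 46.5 FPKM. Both genes were called higher than in ASTs (1.43 ± 0.24 and 0.76 ± 0.22, adjusted p 0.000822 and 0.0145) and lower in A-iSCs than in P0-NPCs (-1.43 ± 0.25 and -1.0 ± 0.23, adjusted p 0.00148 and 0.00587). Their spread within P0-NPCs was wide, and the part of choroid plexus or epithelial cells was not tested.

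P56-NPC replicate 3 stood apart in Cdh1 and Cdh17. Its Cdh1 was 1.55 FPKM, from 117 fragments, beside 0.0882 and 0.0272 FPKM in replicates 1 and 2. Cdh17, an intestinal cadherin, was at 1.34 FPKM from 99 fragments in replicate 3 and had 0 fragments in replicates 1 and 2. The epithelial marker Epcam was at 9.54 FPKM in replicate 3 beside 0.840 and 0.766 FPKM, and Krt8 at 25.7 FPKM beside 6.41 and 3.34 FPKM. Neither cadherin reached a group mean of 1 FPKM in P56-NPCs, so no test with P56-NPCs included them.

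Apart from Cdh17, the genes under 1 FPKM in every group were Cdh7, Cdh9, Cdh12, Cdh15, Cdh16, Cdh18, Cdh23, Pcdh12 and Pcdh15. Pcdh12, a protocadherin of endothelium, had 73, 80 and 80 fragments in P0-NPCs and at most 3 in any other sample, beside endothelial markers that summed to 63.6 to 64.3 FPKM there and to at most 4.46 FPKM elsewhere. Cdh9, a cadherin of hippocampal synapses, had 61, 155 and 55 fragments in P0-NPCs and 0 or 1 in the AST and A-iSC samples. Cdh7 had 0 fragments in the 3 AST samples, which allows up to 3 fragments each, and 79 to 85 fragments in P56-NPCs. Pcdh15 had 0 or 1 fragment in ASTs, 36, 53 and 84 in A-iSCs and 257 to 387 in P56-NPCs. Cdh18 had 19 to 22 fragments in ASTs and 1 or 2 in A-iSCs. Cdh12 had at most 2 fragments in the cultured samples, Cdh15 had 0 to 3 in A-iSCs and 26 to 34 in P56-NPCs, and Cdh23, a cadherin of inner ear hair cells, had 11 to 46 in all samples. None of these genes was tested, since the filter leaves them out.

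Several of the genes lie close together on the chromosomes. Chromosome 8 carries 7 of the 34, chromosomes 14 and 15 carry 5 each, and all 12 type II cadherins lie on chromosomes 1, 2, 8, 14 and 15. On chromosome 1, Cdh20, Cdh7 and Cdh19 lie within 6.2 megabases, and all 3 had their highest group mean in P56-NPCs. On chromosome 8, Cdh3 (chr8:106510891-106557297) and Cdh1 (chr8:106603351-106670246) lie 0.05 megabases apart and both had their highest mean in P0-NPCs. Other close neighbours differed, Pcdh1 and Pcdh12 at 0.06 megabases on chromosome 18 and Cdh26 and Cdh4 at 0.96 megabases on chromosome 2 each being highest in P56-NPCs and P0-NPCs in turn. Cdh23 and Pcdh15, Cdh22 and Cdh26, and Cdh24 and Pcdh8, which shared their highest group, lie 12.4 to 25.13 megabases apart. On chromosome 15, Cdh6 was highest in ASTs, Cdh9 and Cdh12 in P0-NPCs, and Cdh10 and Cdh18 in P56-NPCs. On chromosome 3, Pcdh10 and Pcdh18 lie 4.31 megabases apart, and Pcdh18 fell 10.4-fold in spheres over ASTs while Pcdh10 was not called.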

How the data were processed

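The 12 RNA libraries (NEBNext Ultra kit) were read in pairs on an Illumina instrument. The authors deposited a table of FPKM, with the gene lengths behind it, and the submitters' processing notes name Bowtie 0.12.2 and the build mm8. GENCODE M21 holds 55154 of the identifiers, 54899 at an identical position, so coordinates are on GRCm38. Each value gave a whole number of fragments (within 0.02 of a fragment, 100% of values), and the library sizes behind the values were 0.744 to 1.218 times the counted fragments.

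Groups were compared 2 at a time, as in the study's methods, in 5 comparisons chosen here. limma 3.58.1 (R 4.3.3, lmFit, eBayes with a trend) was run on log2(FPKM + 1) over genes with a mean of at least 1 FPKM in at least 1 of the groups, with Benjamini-Hochberg adjustment and calls at an adjusted p under 0.05. A fold change on this scale understates the change of low genes. Folds given as such are ratios of mean FPKM. The authors used DESeq2 on their counts, which was not run here. On simulated data for A-iSCs against ASTs with 200 changed of 14087 genes, 145 of the changed and 13 unchanged genes were called. The simulation gave all genes the same dispersion, while the real replicates were spread unevenly and 54.8% of the real genes were called. It therefore does not give the error rate of the calls made here. The methods speak of independent experiments in general, but no source used here says whether the sequenced samples came from separate cultures or animals, so the p-values measure the spread between these samples, which may be technical.

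Full statistics were given for members called at a mean of at least 5 FPKM in a compared group or most extreme in their class, with values for the others. The members, their classes, the partner lists and the marker lists were chosen with earlier results of these data known. A list of proteases is not reported here. Promoter sequences came from RefSeq tables on GRCm38.p6. Alternatives were library-size and upper-quartile scaling, no filter, the replicate block, a model of all 4 groups, a pseudocount of 0.1, limma-voom on the recovered fragments, and leaving out each sample in turn. Python 3.11.15 with pandas 2.3.3, numpy 2.4.6 and matplotlib 3.10.9 was used for values and figures.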

Additional observations from a re-analysis of the deposited data

How the results depend on the processing

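Limma-voom on the recovered fragments and a pseudocount of 0.1 kept the direction and the call of every member tested in the 5 comparisons. Counts of members called moved by more than 1.5 times only in these cases: with no filter, A-iSCs had 5 members higher than ASTs, 20 lower than P56-NPCs and 21 lower than P0-NPCs, since every member with fragments in the compared samples then entered, and under library-size scaling 5 were higher in A-iSCs than in P56-NPCs. Leaving out a sample gave 3 to 4 higher and 8 to 11 lower members in A-iSCs against ASTs.

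Signs turned only for members that were not called. Under library-size scaling these were Cdh24 in P56-NPCs against ASTs (-0.17), Pcdh1 in P0-NPCs against ASTs (0.14) and Cdh22 in A-iSCs against P56-NPCs (0.43). Under upper-quartile scaling they were Pcdh1 in P0-NPCs against ASTs (0.24) and, in A-iSCs against P0-NPCs, Cdh2 (-0.08), Pcdh1 (-0.04) and Pcdh9 (-0.09). Leaving out a sample gave, in A-iSCs against ASTs, log2 fold changes of -0.02 to 0.41 for Cdh24, -0.15 to 0.17 for Pcdh1 and -0.02 to 0.49 for Pcdh9. It gave -0.05 to 0.10 for Cdh24 in P56-NPCs against ASTs. In A-iSCs against P56-NPCs it gave -0.02 to 0.33 for Cdh11, -0.24 to 0.09 for Cdh22 and -0.06 to 0.38 for Cdh24, and in A-iSCs against P0-NPCs -0.05 to 0.27 for Pcdh1 and -0.27 to 0.24 for Pcdh9. The causes were not tested.

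The scalings moved all genes together. The median over all genes in A-iSCs against P56-NPCs was 0.47 under library-size scaling, with 8170 genes higher and 3008 lower, against 4532 and 4643 in the values as deposited. In A-iSCs against ASTs library-size scaling gave 4432 higher and 2997 lower (3550 and 4165 as deposited) and upper-quartile scaling 4454 and 2922. In P56-NPCs against ASTs library-size scaling gave 4857 and 7578 and upper-quartile scaling, the other way, 6532 and 5183 (5924 and 6032 as deposited). In P0-NPCs against ASTs upper-quartile scaling gave 7324 and 4314 and library-size scaling 6803 and 4877 (5713 and 6146 as deposited). In A-iSCs against P0-NPCs upper-quartile scaling gave 3929 and 6082 (4773 and 5103 as deposited). Changes between groups are therefore relative to such shifts. Cdh20 and Pcdh9 were called higher in P0-NPCs than in ASTs under both scalings (0.46 to 0.55), and Cdh4 and Cdh11 higher in A-iSCs than in P56-NPCs under library-size scaling (0.50 and 0.66).

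Replicate numbers are shared by the groups, but no label says that they pair the samples. Deviations of same-numbered A-iSC and AST samples correlated at -0.409, 0.351 and 0.452 over genes, so the numbers were not taken as pairs. With the replicate block 4 members were higher and 9 lower in A-iSCs against ASTs, the added one being Cdh22 (adjusted p 0.0287), and 11 were higher and 7 lower in P56-NPCs against ASTs. No other call of a member changed with it. Members at a few fragments cannot be compared at this depth.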
